A study of Mus musculus with 20 samples.

Results

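Skeletal muscle of untrained mice that carry a transgene, which the series names as over-expression of MHC-I, was compared with skeletal muscle of untrained wild-type mice. The comparison takes the 10 mice of the series that did not train, out of 20 in all. They are 5 wild-type mice (titles WTUT) and 5 transgenic mice (titles TGUT), chosen by their titles alone. The other 10 mice, 5 of each genotype, were endurance trained. They enter the shared estimate of spread, the filter and the added constant. Their values are also set beside those of the untrained mice. RNA of each mouse was read on 1 Affymetrix 3' expression array, and a value is the authors' intensity of a probe set, a group of short probes for 1 transcript, on a linear scale. The labels do not give the muscle, the age, sex or strain of the mice, the construct or its promoter, nor the treatment of the untrained mice beyond the lack of training. They do not spell out MHC-I. A further text field that names all 20 samples trained and transgenic conflicts with the titles and was set aside. Single mice are given by their titles, and lists of values always run in the order of the numbers in them. For wild-type mice the order is WTUT-130, WTUT-135, WTUT-136, WTUT-138 and WTUT-142. For transgenic mice it is TGUT-131, TGUT-139, TGUT-145, TGUT-146 and TGUT-147.

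Muscle fibres are built as slow or fast types, each with its own set of myosins, troponins and calcium pumps, and a muscle usually holds a mixture. The Z-disc, where neighbouring sarcomeres join, carries proteins that sense stretch and pass the signal to the nucleus. Heat shock chaperones keep the contractile proteins folded and are induced within a short time by heat, contraction and other stress. Forced expression of a class I histocompatibility heavy chain in muscle is known from mouse models of myositis, in which folding stress in the endoplasmic reticulum, interferon-driven genes and immune cells in the muscle are the usual readouts.

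The 10 arrays gave 22558 to 22679 values each, with medians of 157 to 169.6, and pairs of arrays correlated with r of 0.923 to 0.988. The log2 ratio of the 3' to the 5' Gapdh probe sets is a reading of RNA integrity. It was -0.016, 0.0019, 0.013, 0.096 and -0.036 in the wild-type mice and 0.029, 0.074, -0.060, 0.052 and -0.021 in the transgenic mice. Array WTUT-142 had the most empty cells, and the median of the 10 arrays was 26. All 15 fast fibre genes on the array were bright enough to test, and their summed intensity was 176642 to 186515 in wild-type and 174306 to 190079 in transgenic mice, so the defining markers of skeletal muscle were bright in all 10. Nothing states that the RNA was taken from 1 muscle, and in whole tissue fewer fibres or cells of a type and less RNA per cell cannot be told apart.

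Of 13576 tested probe sets, 15 passed the threshold of an adjusted p under 0.05 in limma (0.11%), 2 of them higher (0.0147%) and 13 lower (0.0958%) in transgenic mice. They stand for 13 genes. Csrp3, Ankrd2, Myl2, Tnni1, Phlda3, Tnfrsf12a, Pdgfa, Olfm1, Xpo1, Hspa8 and Acvr2b fell, and Tef and Arfgap2 rose. An unadjusted p under 0.05 was reached by 1103 probe sets (8.12%), and the groups did not overlap in 195 (1.44%), with every transgenic mouse below every wild-type mouse in 97 (0.714%) and above in 98 (0.722%). The median difference over all tested probe sets was 0.00479 log2. The calls rest on the spread shared by all 20 mice: with only the 10 untrained mice in the fit, limma called 0 probe sets, 899 had an unadjusted p under 0.05, and the smallest adjusted p was 0.182. Without mouse WTUT-135, WTUT-138 or TGUT-139 there were 2 calls each time, Phlda3 and Pdgfa. Leaving out TGUT-145 gave 26 calls and TGUT-147 24, whereas WTUT-142 gave 10, WTUT-130 8, WTUT-136 7, and TGUT-131 and TGUT-146 6 each. Of these 10 fits, Phlda3 and Pdgfa were called in 10, Csrp3 in 7, and Ankrd2, Myl2, Olfm1 and Tef in 4. Tnfrsf12a was called in 4 and 5 on its 2 probe sets, Hspa8, Acvr2b and both called Xpo1 probe sets in 3, and Tnni1 in 2. The Arfgap2 call was lost whichever mouse was left out (0 of 10 fits).

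**Figure D1:**
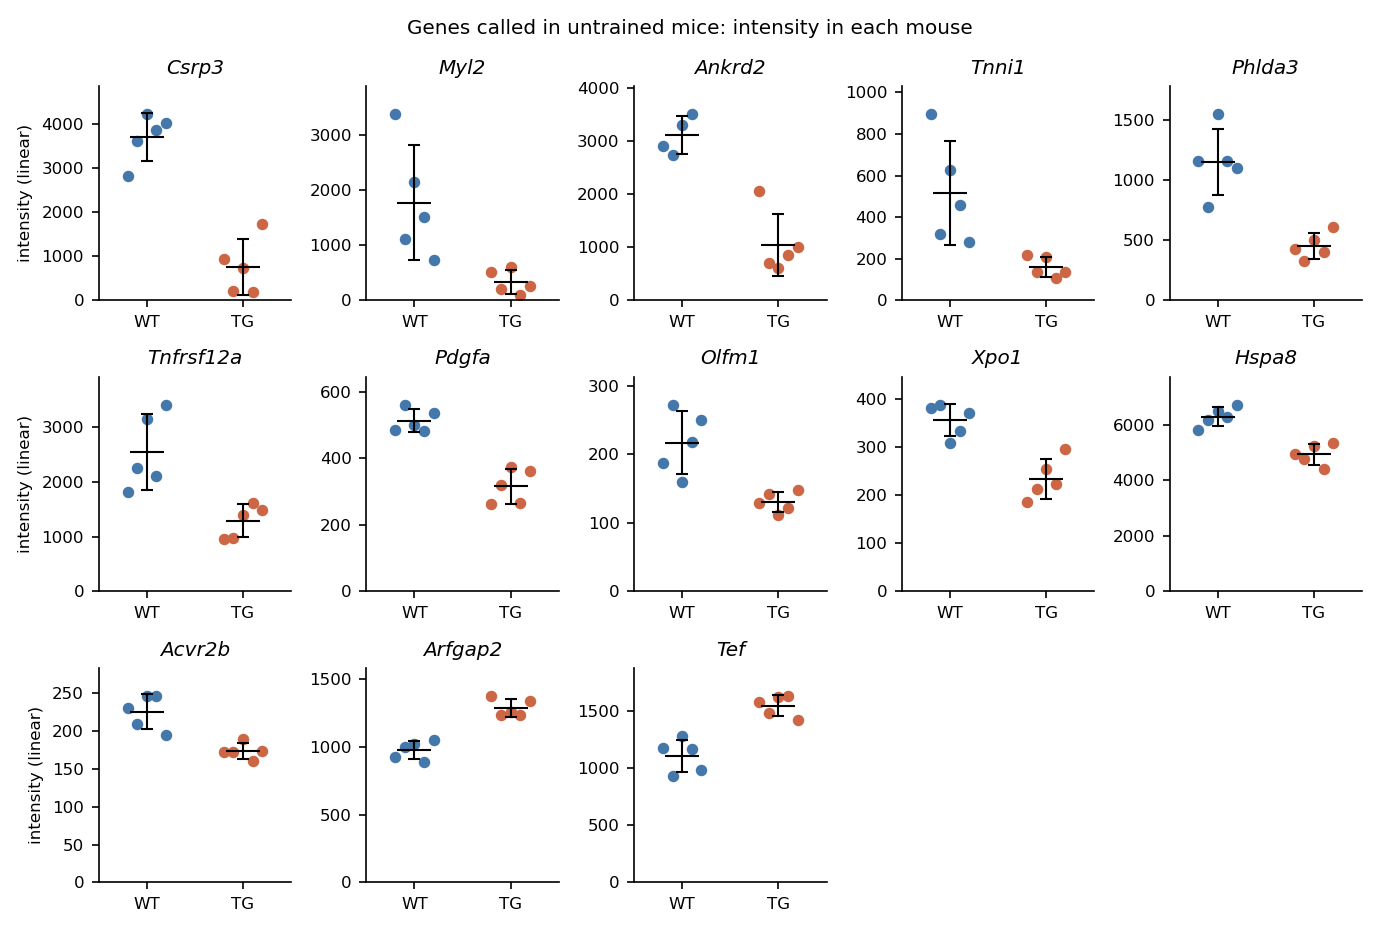
Each panel plots 1 called gene, with array intensity on a linear axis from 0 and 1 point per untrained mouse (blue, wild-type; orange, transgenic; horizontal bar and whiskers, mean and SD; n = 5, and 4 wild-type mice for Ankrd2). In all 13 panels the points of the groups do not overlap, which follows in part from the choice of these genes on the same values. Over all 13576 tested probe sets the groups did not overlap in 195 (1.44%). Csrp3 has 182 to 1724 in transgenic against 2828 to 4232 in wild-type mice.

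Among transcripts of slow fibres, Myl2 and Tnni1 fell, and most other members had values below 0 that did not pass the test. Myl2, the regulatory light chain of slow and cardiac myosin, read 3379, 1109, 2138, 1503 and 739 in the wild-type mice and 512, 207, 606, 95.6 and 256 in the transgenic mice. No transgenic value reached the wild-type range, and within the wild-type mice WTUT-130 was the highest and WTUT-142 the lowest. Myl2 fell by 2.20 ± 0.39 on the log2 scale (SE), 4.58-fold (limma adjusted p = 0.0272). Fold changes here are on the scale of log2 intensity plus a constant, which shrinks the changes of dim genes. Tnni1, the troponin I of slow fibres, read 896, 319.9, 625, 459 and 282 in the wild-type mice and 218, 137.9, 207, 106 and 136.95 in the transgenic mice. Its groups did not overlap either, with mouse WTUT-142 again the lowest of the wild-type mice. It fell by 1.28 ± 0.25 log2, 2.43-fold (adjusted p = 0.048).

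Of the 11 tested slow fibre genes these 2 fell (0.13% of all 8486 tested genes did on their brightest probe set), 10 had a value below 0, and 9 had an unadjusted p under 0.05 in the lower direction. Among all tested genes, 47.2% had a value below 0 and 4.43% such a p. The median of the list was -0.95 log2, against 0.00590 over all tested genes. Tnnt1, the slow troponin T, read 2329, 722, 1484, 1112 and 458 in the wild-type mice and 686, 247, 441, 75.0 and 233 in the transgenic mice. Only transgenic mouse TGUT-131 reached into the wild-type range, above wild-type mouse WTUT-142, and the difference of -1.70 ± 0.41 log2 did not pass the threshold (adjusted p = 0.134). Atp2a2, the calcium pump of slow fibres and heart, differed by -1.26 ± 0.31 (adjusted p = 0.141), and Myoz2, a Z-disc protein of slow fibres, by -0.95 ± 0.29 (adjusted p = 0.318).

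Myh7, which encodes the heavy chain of slow myosin, read 2797, 722, 1300.2, 1056 and 396 in the wild-type mice and 800.0, 386, 533, 299 and 350.2 in the transgenic mice. The groups overlapped: wild-type mouse WTUT-142 lay among the transgenic mice, and transgenic mouse TGUT-131 was also above wild-type mouse WTUT-135. The difference was -1.10 ± 0.37 log2 (adjusted p = 0.366), so a higher level of this myosin was not seen in the mice labelled transgenic. Myl3, the essential light chain of slow myosin, was read by 3 probe sets that differed in size. The brightest gave -0.80 ± 0.23 log2 (adjusted p = 0.269), and the dimmer ones gave -1.61 and -2.09, each at an adjusted p of 0.0619. Smaller values were found for the slow troponin C gene Tnnc1 (-0.36 ± 0.15), the slow calsequestrin Casq2 (-0.26 ± 0.08) and the slow tropomyosin Tpm3 (-0.10 ± 0.10). Lmod2, which lengthens thin filaments, was the 1 member above 0, at 0.032 ± 0.25.

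The summed intensity of the 13 slow fibre genes on the array was 11626 to 25156 in wild-type mice and 7675 to 13339 in transgenic mice. The ranges overlapped through the transgenic mouse with the most and the wild-type mouse with the least slow transcript. The fast fibre genes gave no counterpart. None of 15 passed the test, with 1 at an unadjusted p under 0.05 in each direction, and their median was 0.01 log2. Myh4, the myosin heavy chain of the fastest fibres, was at 14101 ± 408 and 14069 ± 712 (mean ± SD, n = 5 each) and differed by -0.0042 ± 0.034 log2. Myh2, the myosin of fast oxidative fibres, ranged from 4187 to 7598 in wild-type and 2430.5 to 7831 in transgenic mice and differed by -0.18 ± 0.23.

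Of all called probe sets, Csrp3 had the largest change. Csrp3, muscle LIM protein, a Z-disc protein that moves to the nucleus under load, read 2828, 3619.7, 4232, 3865 and 4019 in the wild-type mice and 939.7, 213, 747, 182 and 1724 in the transgenic mice. The wild-type mice lay close together, while transgenic mice TGUT-139 and TGUT-146 were far below the others of their group. Csrp3 fell by 2.56 ± 0.40 log2, 5.91-fold (adjusted p = 0.0171). Ankrd2, an ankyrin repeat protein raised by stretch and abundant in slow fibres, read 2898, 2732, 3293, 3506 and no value in the wild-type mice and 2053, 705, 615, 849 and 996 in the transgenic mice. Transgenic mouse TGUT-131 stood well above the other 4 of its group but still below every measured wild-type mouse. It fell by 1.64 ± 0.27 log2, 3.11-fold (adjusted p = 0.0258), with the empty cell of mouse WTUT-142 left out of the fit.

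Of 17 tested Z-disc and stretch genes these 2 fell (0.13% of all tested genes did), and the median was -0.20 log2. In this list 13 were below 0 (47.2% of all tested genes), and 8 had an unadjusted p under 0.05 in the lower direction (4.43%). Actn2, the α-actinin that crosslinks actin at the Z-disc of all fibres, read 4460.4, 4505, 5145, 4831 and 4552 in the wild-type mice and 3517, 2528, 2969.7, 2044 and 4189 in the transgenic mice. The groups did not overlap, and the difference was -0.65 ± 0.14 log2 (adjusted p = 0.0975). Ankrd1, a relative of Ankrd2 that is induced by injury and stretch, varied widely, from 243 to 1938 in wild-type and 173 to 704 in transgenic mice (-1.20 ± 0.53 log2, adjusted p = 0.559). Xirp1, an actin-binding repair protein, ranged from 2549 to 6681 in wild-type and 782 to 4364 in transgenic mice (-1.10 ± 0.36, adjusted p = 0.365). Tcap, the titin cap, lay on the other side of 0 at 0.28 ± 0.087 (adjusted p = 0.318). The filamin Flnc differed by -0.40 ± 0.15 (adjusted p = 0.436).

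**Figure D2:**
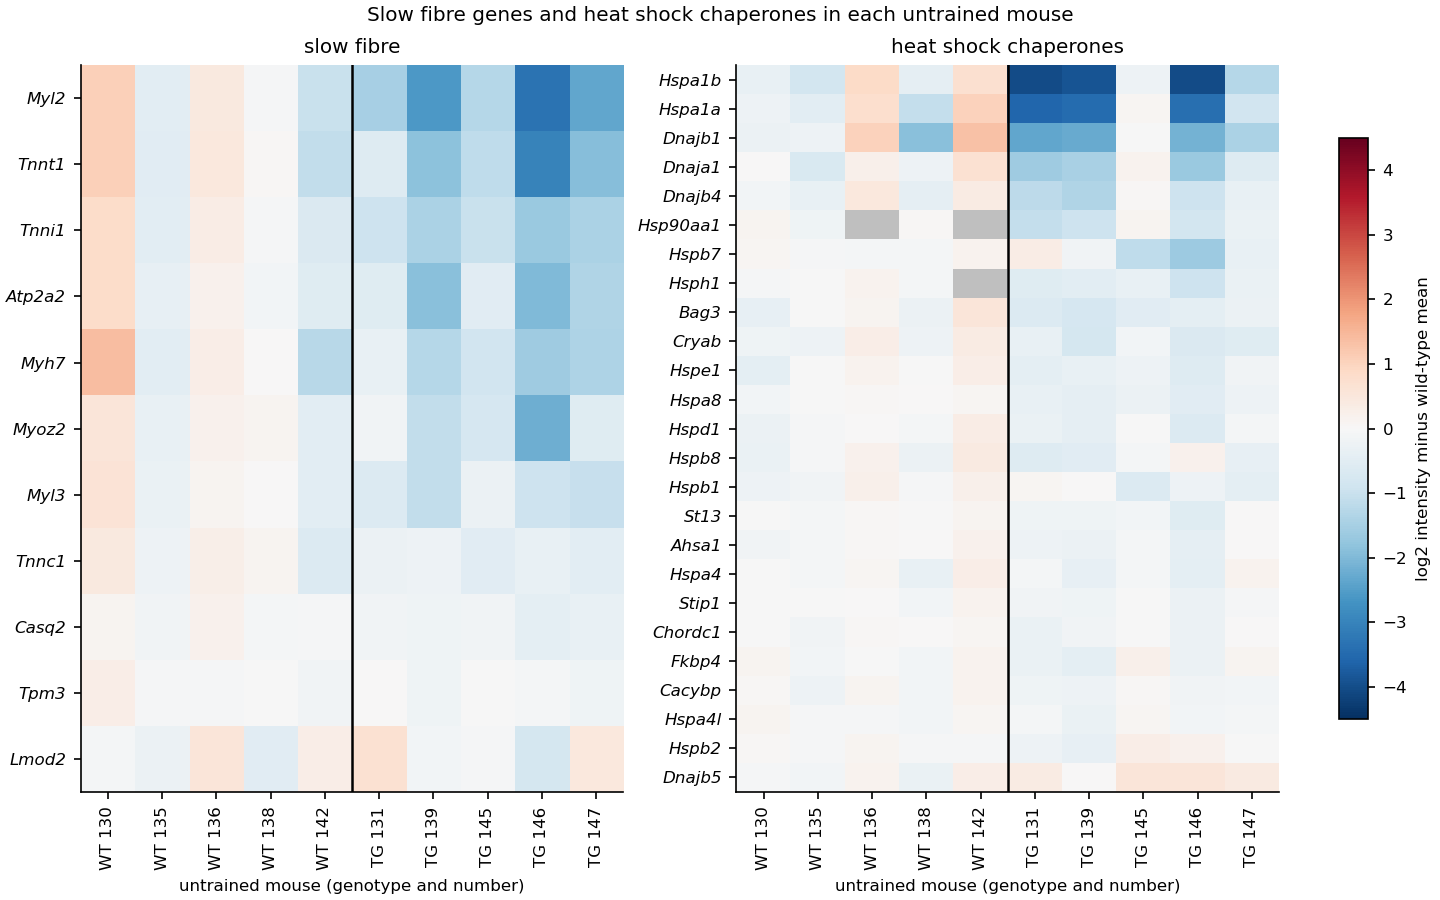
Colour shows log2 intensity (plus the constant) minus the mean of the wild-type mice, for the 11 tested slow fibre genes (left) and the 25 tested heat shock chaperones (right) in each of the 10 untrained mice; grey marks empty cells. Transgenic mice TGUT-131, TGUT-139 and TGUT-146 are darkest blue for Hspa1b, Hspa1a and Dnajb1, while TGUT-145 is near the wild-type level; among slow genes wild-type mouse WTUT-130 is the highest and transgenic mouse TGUT-146 the lowest in Myl2 and Tnnt1.

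Among the heat shock chaperones Hspa8 fell by a similar amount in all transgenic mice, and the inducible genes were low in some of them and not in others. Hspa8, the constitutive cytosolic Hsp70, read 5806, 6169, 6474, 6282 and 6706 in the wild-type mice and 4933, 4768, 5219, 4409 and 5323 in the transgenic mice. The groups did not overlap, and both were narrow. Hspa8 fell by 0.35 ± 0.06 log2, 1.27-fold (adjusted p = 0.0258). Its 2 dimmer probe sets gave -0.51 (adjusted p = 0.105) and -0.54 (adjusted p = 0.280). Of the 25 tested chaperones Hspa8 alone passed the test (0.13% of all tested genes fell), and the median was -0.29 log2. A value below 0 was found in 24 (47.2% of all tested genes). An unadjusted p under 0.05 in the lower direction was found in 14 (4.43%).

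Hspa1b, an inducible Hsp70, read 3140.1, 2214, 7255, 3013 and 6714 in the wild-type mice and 181, 209.8, 3373, 184 and 1589 in the transgenic mice. Transgenic mice TGUT-131, TGUT-139 and TGUT-146 were far below every wild-type mouse, whereas TGUT-147 was only somewhat below and TGUT-145 lay within the wild-type range. Hspa1a, its near-identical neighbour, whose probe sets may share transcripts with it, read 1882, 1593, 3832, 1019 and 4666 in the wild-type mice and 126, 141.2, 2395, 155 and 1201 in the transgenic mice. The same 3 transgenic mice were low. They also had the highest Gapdh and the lowest actin 3'/5' ratios of their group. The part of RNA integrity in this pattern was not tested. The differences were -2.70 ± 0.77 log2 for Hspa1b (adjusted p = 0.254) and -2.24 ± 0.74 for Hspa1a (adjusted p = 0.365).

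Dnajb1, the J-protein that works with the inducible Hsp70, read 1023, 1040.0, 2599, 284 and 3137 in the wild-type mice and 189, 205, 1212, 231 and 413 in the transgenic mice. Mouse WTUT-138 was below TGUT-145 and TGUT-147 but above the other 3 transgenic mice, and the difference was -1.63 ± 0.57 log2 (adjusted p = 0.389). Dnaja1, another J-protein, differed by -1.04 ± 0.38 (adjusted p = 0.412). Hsph1, an Hsp110 that recharges Hsp70, read 1019, 1039, 1198, 985 and no value in the wild-type mice and 710.0, 749, 817, 524 and 842 in the transgenic mice, without overlap between the groups. Its difference was -0.52 ± 0.11 (adjusted p = 0.0642), with the empty cell of mouse WTUT-142 left out. Bag3, the co-chaperone of chaperone-assisted autophagy at the Z-disc, differed by -0.51 ± 0.13 (adjusted p = 0.145) and the small heat shock protein Cryab by -0.49 ± 0.15 (adjusted p = 0.3). Dnajb5 was the single member above 0, at 0.37 ± 0.12 (adjusted p = 0.363). The summed intensity of the 27 chaperone genes on the array was 51725 to 73831 in wild-type and 37999 to 49102 in transgenic mice, without overlap. This was not particular to the chaperones. The Z-disc and stretch genes summed to 69365 to 84794 in wild-type and 53072 to 68587.5 in transgenic mice. The growth factors and receptors summed to 10907 to 12510 in wild-type and 9080 to 10363 in transgenic mice.

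Heat shock factor binds promoters at repeats of a short element whose core pair of units can be written GAANNTTC, which reads the same on both strands. In RefSeq promoter windows of build GRCm38.p6 (250 bases before to 50 after a gene's start), 20 of the 25 tested chaperone genes had a window and 11 of these 20 genes (55.0%) held the letters, against 9.04% of 27025 genes in the table. They were Bag3, Chordc1, Dnaja1, Fkbp4, Hspa1a, Hspa1b, Hspb1, Hspb8, Hspd1, Hspe1 and Hsph1. Of the 12 called genes with a window, 2 held them, Csrp3 and Pdgfa. The windows of the inducible Hsp70 genes, which had the widest differences between mice, and of Hsph1, whose groups did not overlap, are shown with GAANNTTC matches, and in Hsph1 also a CACGTG match, in capitals. The Hspa1b window is chr17:34959189-34959488, the Hspa1a window chr17:34972107-34972406 and the Hsph1 window chr5:149636287-149636586, all on the minus strand. In both Hsp70 windows the match begins 104 bases before the start. In the Hsph1 window shown it begins 41 bases after the start, and in another Hsph1 window 20 bases after.
Hspa1b: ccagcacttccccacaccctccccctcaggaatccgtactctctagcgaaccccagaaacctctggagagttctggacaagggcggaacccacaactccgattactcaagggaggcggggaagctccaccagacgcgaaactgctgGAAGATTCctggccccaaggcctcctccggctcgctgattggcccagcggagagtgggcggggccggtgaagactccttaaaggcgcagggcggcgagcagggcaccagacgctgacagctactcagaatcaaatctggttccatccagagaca
Hspa1a: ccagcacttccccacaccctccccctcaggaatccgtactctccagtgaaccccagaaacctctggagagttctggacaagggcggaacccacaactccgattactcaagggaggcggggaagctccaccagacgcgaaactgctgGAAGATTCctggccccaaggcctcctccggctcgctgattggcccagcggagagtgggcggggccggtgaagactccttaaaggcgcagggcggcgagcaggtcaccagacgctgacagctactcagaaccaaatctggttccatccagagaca
Hsph1: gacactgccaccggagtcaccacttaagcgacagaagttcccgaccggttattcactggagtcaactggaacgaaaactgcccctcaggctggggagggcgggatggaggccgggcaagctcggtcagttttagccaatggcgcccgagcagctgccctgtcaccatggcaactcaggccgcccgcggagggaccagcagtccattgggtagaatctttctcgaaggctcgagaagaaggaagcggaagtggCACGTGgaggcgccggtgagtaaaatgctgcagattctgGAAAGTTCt

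Chaperones of the endoplasmic reticulum gave no call. Of 27 tested genes of the unfolded protein response 0 passed in limma, with 2 at an unadjusted p under 0.05 in each direction, and the median was -0.05 log2. Hspa5, the Hsp70 of the endoplasmic reticulum, ranged from 669.6 to 916 in wild-type and 577 to 791 in transgenic mice (-0.17 ± 0.12 log2), and Ddit3, the stress factor CHOP, from 151 to 175 in wild-type and 123 to 182 in transgenic mice (-0.051 ± 0.069). The groups overlapped in both genes. The transcription factor gene Atf4 was at -0.30 ± 0.11 (adjusted p = 0.4), and Herpud1, a degradation factor of that compartment, at 0.25 ± 0.092 (adjusted p = 0.418).

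The class I histocompatibility genes were not higher in the mice labelled transgenic. H2-K1, a class I heavy chain, read 872, 784, 1078, 1559 and 1215 in the wild-type mice and 831, 893, 1299, 1204 and 1118 in the transgenic mice, and the difference was -0.021 ± 0.22 log2 (adjusted p = 0.991). H2-D1, another heavy chain, was at 0.015 ± 0.22 (adjusted p = 0.992), and B2m, the light chain, at 0.084 ± 0.18 (adjusted p = 0.955). The heavy chain probe sets are of a type that can bind several related transcripts, and whether they would read the transgene is unknown, so these values check no label. Over the mice both heavy chains were highest in wild-type mouse WTUT-138. The signs of the H2-K1 and H2-D1 values change when single mice are left out. Of 11 tested antigen-processing genes 0 passed and 0 had an unadjusted p under 0.05. The immunoproteasome subunit Psmb8 differed by -0.046 ± 0.062, and Tap1 was too dim to test.

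Of 16 tested interferon-responsive genes 15 had a value above 0, with a median of 0.04 log2, and 52.8% of all tested genes were above 0. None passed the test, and 1 had an unadjusted p under 0.05. This was Ifitm3, an antiviral membrane protein (0.24 ± 0.10, adjusted p = 0.518), which ranged from 484 to 692 in wild-type and 593 to 846 in transgenic mice. The immune cell markers gave no call. Summed intensity of the 18 macrophage markers was 3455 to 3936 in wild-type and 3455 to 3967 in transgenic mice, and of the 14 T and NK cell markers 1253 to 1501 and 1332 to 1559. Only 4 of those 14 were bright enough to test. Of the macrophage markers 13 were tested, and Cd68 was too dim. Of 4 tested B and plasma cell markers 3 were above 0, with a median of 0.06 log2, and Ighm was the 1 below. Ighm, the immunoglobulin μ heavy chain, read 2326, 2029.8, 1825, 1908 and 1810.4 in the wild-type mice and 1188, 1506, 1873, 1589.9 and 910.0 in the transgenic mice and differed by -0.50 ± 0.19 (adjusted p = 0.448).

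Phlda3, whose product holds Akt off the membrane and which p53 induces, had the smallest p of all probe sets. It read 1157, 777, 1552, 1159.9 and 1105 in the wild-type mice and 426, 327, 503, 407 and 608 in the transgenic mice. The groups did not overlap, with 608 the highest transgenic and 777 the lowest wild-type value. Phlda3 fell by 1.22 ± 0.17 log2, 2.32-fold (adjusted p = 0.00796), and the call held in 10 of 10 fits with 1 untrained mouse left out. It was the 1 of 14 tested p53 targets that passed (0.13% of all tested genes fell), and the median of the list was -0.01 log2. Of the 14, 6 were above 0 and 8 below. An unadjusted p under 0.05 was found for 2 in the higher direction (3.02% of all tested genes) and 1 in the lower (4.43%). Cdkn1a, the cell cycle inhibitor p21, read 1984, 3295, 1962, 2381 and 2971 in the wild-type mice and 3160.3, 3037, 655, 2781 and 1966 in the transgenic mice and differed by -0.26 ± 0.35 (adjusted p = 0.924). Transgenic mouse TGUT-145 alone was far below the rest. Perp, a membrane protein and p53 target, was on the other side of 0 at 0.60 ± 0.20 (adjusted p = 0.372), as was the growth arrest gene Gadd45a at 0.43 ± 0.28 (adjusted p = 0.787, 4 mice per group).

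In the insulin and Akt pathway, to which Phlda3 also connects, 0 of 19 tested genes passed, with 2 at an unadjusted p under 0.05, both lower. Irs1, the main insulin receptor substrate of muscle, read 1092, 1567, 974, 914 and 1557 in the wild-type mice and 456, 605, 1087, 225 and 1049 in the transgenic mice (-0.91 ± 0.33 log2, adjusted p = 0.405). Mice TGUT-131, TGUT-139 and TGUT-146 were the low ones, as for Hspa1b. Akt1 differed by -0.21 ± 0.14.

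Of 24 tested growth factors and receptors 2 fell (0.13% of all tested genes did) and 16 were below 0 (47.2%), with a median of -0.09 log2. Pdgfa, a platelet-derived growth factor chain that signals to fibroblasts, read 484, 560.1, 500.4, 482 and 536 in the wild-type mice and 262, 319, 374, 266 and 361 in the transgenic mice. The groups did not overlap, and the gap between them was wider than the range of the wild-type mice. Pdgfa fell by 0.61 ± 0.088 log2, 1.52-fold (adjusted p = 0.00796), in 10 of 10 fits that left out a mouse. Its dimmer probe set gave -0.14 (adjusted p = 0.736). The receptor genes of the platelet-derived growth factor family, Pdgfra (-0.095 ± 0.073) and Pdgfrb (-0.054 ± 0.044), did not pass.

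Tnfrsf12a, the Fn14 receptor of the cytokine TWEAK, is known as a gene that injury and exercise can raise in muscle. It read 1812, 2258, 3147, 2113 and 3411 in the wild-type mice and 954, 985, 1403, 1616 and 1498 in the transgenic mice. Mice TGUT-131 and TGUT-139 were the lowest, and WTUT-136 and WTUT-142 the highest. Tnfrsf12a fell by 0.94 ± 0.18 log2 on its brightest probe set (adjusted p = 0.0368) and by 1.10 ± 0.18 on the other (adjusted p = 0.0254). Acvr2b, the activin receptor through which myostatin acts, read 231, 209, 246, 246 and 195 in the wild-type mice and 172, 172, 189, 160.2 and 174 in the transgenic mice. It fell by 0.28 ± 0.051, a 1.21-fold change of a dim gene (adjusted p = 0.0272), without overlap between groups. Igf2, an insulin-like growth factor, did not overlap between groups (461 to 567 in wild-type and 377 to 451 in transgenic mice) but did not pass (-0.22 ± 0.083, adjusted p = 0.425).

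Among 25 tested nuclear transport genes Xpo1 fell (0.13% of all tested genes did), and the median was 0.03 log2. In this list 17 were above 0 (52.8% of all tested genes) and 8 below. An unadjusted p under 0.05 was found in 4, all lower (4.43% of all tested genes). Xpo1, the exportin that carries proteins out of the nucleus, read 382, 389, 309, 334 and 371 in the wild-type mice and 186, 214, 255, 223 and 296 in the transgenic mice. It fell by 0.50 ± 0.091 log2 (adjusted p = 0.0295) and by 0.45 ± 0.082 on another probe set (adjusted p = 0.0272), while the dimmest one gave 0.04 (adjusted p = 0.936). Ipo7, an importin, read 1089, 1199, 960.3, 816 and 1269 in the wild-type mice and 643, 563, 1079.9, 451 and 775 in the transgenic mice, and its difference was -0.60 ± 0.16 (adjusted p = 0.19). Transgenic mouse TGUT-145 was within the wild-type range. Kpna2, an importin α, was at -0.31 ± 0.13 (adjusted p = 0.518).

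Olfm1, a secreted olfactomedin best known from neurons, read 188, 272, 159, 218 and 249.8 in the wild-type mice and 128.9, 142.6, 111, 122 and 147.4 in the transgenic mice. It fell by 0.52 ± 0.092 log2 (adjusted p = 0.0272), a change of a dim gene. Its transgenic values lay near the filter level, an intensity of 126, and over the refits its value ran from -0.71 to -0.37. Arfgap2, which switches off the Arf GTPase of Golgi transport vesicles, rose by 0.38 ± 0.073 on its dimmer probe set (adjusted p = 0.0448), where it read 921, 995, 1018, 888 and 1049.9 in the wild-type mice and 1374, 1231, 1257, 1231 and 1335 in the transgenic mice. The brighter probe set gave 0.34 ± 0.078 without passing (adjusted p = 0.11). In neither of its probe sets did the groups overlap, but the call was lost in each fit that left out 1 mouse.

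Tef, a PAR bZIP factor whose level follows the circadian clock, was the other gene that rose. It read 1174, 933, 1278, 1164 and 982 in the wild-type mice and 1577, 1484, 1619.5, 1632 and 1419 in the transgenic mice. All transgenic mice were above all wild-type mice, and both groups were narrow. Tef rose by 0.47 ± 0.081 log2, 1.38-fold (adjusted p = 0.0258), and its dimmer probe set gave 0.53 (adjusted p = 0.0755). It was the 1 of 15 tested clock genes that passed (0.0118% of all tested genes rose), and the median of the list was 0.04 log2.

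Dbp, a relative of Tef and one of the most strongly cycling transcripts of muscle, read 83.0, 108, 103, 86.7 and 92.5 in the wild-type mice and 109, 109, 403, 461 and 114 in the transgenic mice. The high values came from transgenic mice TGUT-145 and TGUT-146 alone, and the other 3 transgenic mice were close to the highest wild-type mouse. The difference of 0.74 ± 0.45 log2 did not pass (adjusted p = 0.744). Nr1d2, a clock repressor, was at 0.44 ± 0.19 (adjusted p = 0.55) and Arntl, the clock activator, at -0.34 ± 0.29 (adjusted p = 0.864). The time of day at which each mouse was sampled is not in the labels, and its part in these values was not tested. Without mice TGUT-145 and TGUT-146 the fit made 8 calls. The E-box CACGTG was in the windows of 2 of the 13 clock genes with one, Per1 and Tef, against 8.09% of genes in the table.

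**Figure D3:**
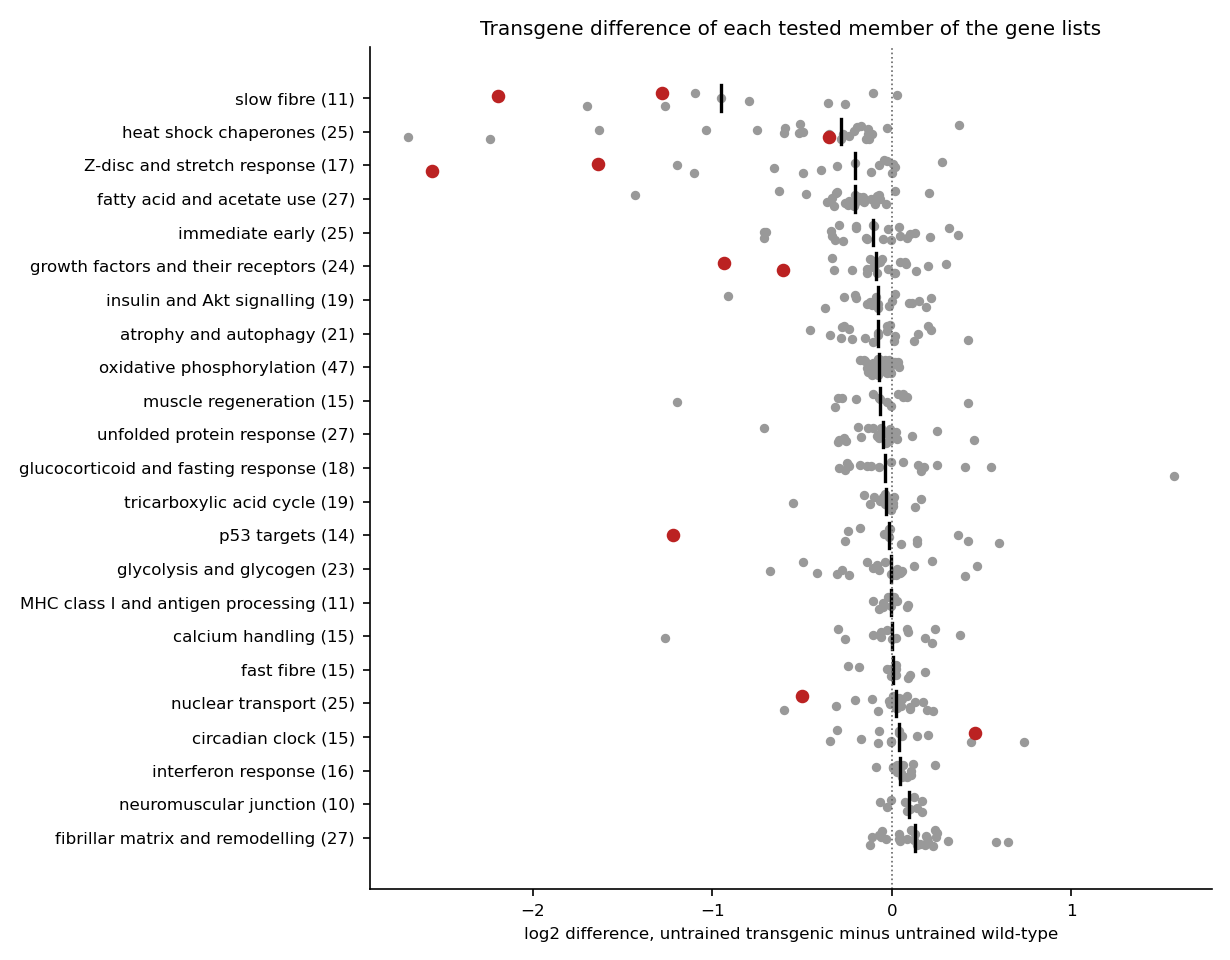
Points are the log2 differences (untrained transgenic minus untrained wild-type) of the tested members of each gene list, 1 probe set per gene, with the number tested in parentheses; red points passed the test and black bars are medians. Among the lists drawn, which leave out cell type markers, slow fibre genes have the lowest median, -0.95, followed by the heat shock chaperones at -0.29.

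No metabolic list held a call. Among 47 tested subunits of oxidative phosphorylation 43 were below 0, with a median of only -0.07 log2, 4 at an unadjusted p under 0.05 and none called. That direction depends on the scaling: after quantile normalization 17 members were above 0 in place of 4. Uqcrq, a complex III subunit, had the lowest value (-0.18 ± 0.077, adjusted p = 0.555). Of 27 tested genes of fatty acid and acetate use 25 were below 0, also after quantile normalization, with a median of -0.20, 5 at an unadjusted p under 0.05 and none called. Acss1, the mitochondrial acetyl-CoA synthetase that activates acetate, read 985, 1751, 657, no value and 1593 in the wild-type mice and 649, 518, 219, 126 and 797 in the transgenic mice. The transgenic mice TGUT-145 and TGUT-146 were the lowest, and the difference was -1.43 ± 0.48 (adjusted p = 0.366), with 4 wild-type mice. The fatty acid binding protein Fabp3 was at -0.48 ± 0.17 (adjusted p = 0.412) and Hadhb, of the mitochondrial trifunctional protein, at -0.36 ± 0.13 (adjusted p = 0.398).

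Ppargc1a, the coactivator of mitochondrial biogenesis, read 851, 1568, 1338, 314 and 1481 in the wild-type mice and 302, 287, 1106, 632 and 1248 in the transgenic mice. It was low in wild-type mouse WTUT-138 and transgenic mice TGUT-131 and TGUT-139, and the difference was -0.63 ± 0.37 (adjusted p = 0.736). Hk2, the insulin- and exercise-responsive hexokinase, was low in the same 3 mice: it read 4318, 4668, 4948, 1798 and 4544 in the wild-type mice and 1169, 1007, 4463, 3693 and 3738 in the transgenic mice (-0.68 ± 0.34, adjusted p = 0.657). Idh2, the mitochondrial isocitrate dehydrogenase, did not overlap between groups (1701 to 2192 in wild-type and 726 to 1656 in transgenic mice), at -0.55 ± 0.19 (adjusted p = 0.372). Among glucose genes Ugp2, which makes the glucose donor for glycogen, was at -0.50 ± 0.11 (adjusted p = 0.1), and the glucose transporter gene Slc2a3 at 0.47 ± 0.11 (adjusted p = 0.125), with every transgenic mouse above every wild-type mouse.

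Matrix genes gave no call. Of 27 tested, 21 were above 0, the median was 0.13 log2, 4 had an unadjusted p under 0.05 in the higher direction (3.02% of all tested genes), and none passed. Ogn, the small proteoglycan osteoglycin, read 181, 97.8, 161, 177 and 129.2 in the wild-type mice and 187, 249, 355, 273 and 297 in the transgenic mice. Every transgenic mouse was above every wild-type mouse, by 0.65 ± 0.13 log2 (adjusted p = 0.0619). Col1a2, a chain of type I collagen, ranged from 497 to 953 in wild-type and 859 to 1580.4 in transgenic mice (0.58 ± 0.19, adjusted p = 0.365). Of fibroblast markers, 8 of 11 tested were above 0, with a median of 0.18 log2, and the summed intensity of the 12 on the array was 7055 to 11730 in wild-type and 10394 to 12856 in transgenic mice. The part of fibroblast content in the matrix values was not tested. No fibroblast marker passed the test.

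Adipocyte transcripts varied within the wild-type group. Fasn, fatty acid synthase, read 173, 372, 734, 2579 and 2479 in the wild-type mice and 199, 226, 340.1, 533 and 279 in the transgenic mice, so that mice WTUT-138 and WTUT-142 stood far above the rest. The difference was -1.29 ± 0.69 log2 (adjusted p = 0.694). The summed intensity of the 13 adipocyte markers was 19109 to 35789 in wild-type and 19044 to 23764 in transgenic mice, 9 of 12 tested were below 0, and none passed. The part of fat content in the calls was not tested directly. Without mice WTUT-138 and WTUT-142 limma called 0 probe sets, with 682 at an unadjusted p under 0.05.

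Lcn2, lipocalin 2, a secreted iron-trapping protein induced by inflammation, read 145.97, 255, 172, 77.2 and 239.9 in the wild-type mice and no value, 2102, 116, 2212 and 198 in the transgenic mice. It was high in transgenic mice TGUT-139 and TGUT-146 only (1.57 ± 0.62 log2, adjusted p = 0.484, 4 transgenic mice). Sgk1, a glucocorticoid-induced kinase, was at 0.56 ± 0.24 (adjusted p = 0.535). None of 18 glucocorticoid and fasting genes passed, and 3 had an unadjusted p under 0.05, all higher (3.02% of all tested genes). In this list 8 were above 0 and 10 below, with a median of -0.04 log2.

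Below the threshold, 17 further genes completed the 30 with the smallest unadjusted p. Of these, 8 entered through a probe set that was not the brightest of the gene, and the brightest one then gave values from -0.80 to 0.47 log2. Aldh1a1, the retinaldehyde dehydrogenase, read 883, 625, 794, 598 and 689 in the wild-type mice and 1294, 1087, 1422, 956 and 1313 in the transgenic mice, without overlap, and differed by 0.71 ± 0.14 (adjusted p = 0.0619). Tmem43, a protein of the inner nuclear membrane, was at -0.43 ± 0.086 (adjusted p = 0.0619) and Anxa2, an annexin of membrane repair, at -0.41 ± 0.082 (adjusted p = 0.0619), both without overlap. Slc25a14, a mitochondrial carrier, was at 0.23 ± 0.049 (adjusted p = 0.0642), the quinone reductase Nqo1 at 0.18 ± 0.039 (adjusted p = 0.0824) and Wls, which escorts Wnt proteins, at 0.33 ± 0.084 (adjusted p = 0.173).

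The trained mice, 5 of each genotype and in neither group mean of the untrained comparison, gave the same sign for 15 of the 15 called probe sets. Over all tested probe sets 68.8% had the same sign in both. In the trained mice 11 of the 15 had an unadjusted p under 0.05 (12.5% of all probe sets did). Of the 15, 2 passed the threshold, Myl2 and Tnni1, which 7 probe sets did in all (0.0516%). These p-values use the same estimate of spread as the untrained calls, so they are not independent of the choice. Myl2 was at -2.57 ± 0.39 log2 in trained mice (adjusted p = 0.0104) and Tnni1 at -1.74 ± 0.25 (adjusted p = 0.00678), both farther from 0 than in untrained mice. The other 13 were nearer to 0 in trained mice, and since they were picked on the untrained values their sizes there are not independent of the choice.

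Csrp3 was at -1.05 ± 0.40 in trained mice (adjusted p = 0.307), Ankrd2 at -1.05 ± 0.26, Phlda3 at -0.53 ± 0.17, Pdgfa at -0.18 ± 0.088 and Hspa8 at -0.057 ± 0.06. Hspa1b, so uneven among untrained transgenic mice, was at -0.18 ± 0.77. The test of the difference between training states, an interaction term in the same fit, called 0 of 13576 probe sets in limma, with 395 at an unadjusted p under 0.05 (2.91%) and a smallest adjusted p of 0.9999. Among the 15, 10 had an unadjusted p under 0.05 for it, Pdgfa and Hspa8 among them. The untrained values on which the 15 were picked are part of this term, so the count follows in part from the choice. No difference between untrained and trained mice in the effect of the transgene was therefore shown for any of the 15.

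**Figure D4:**
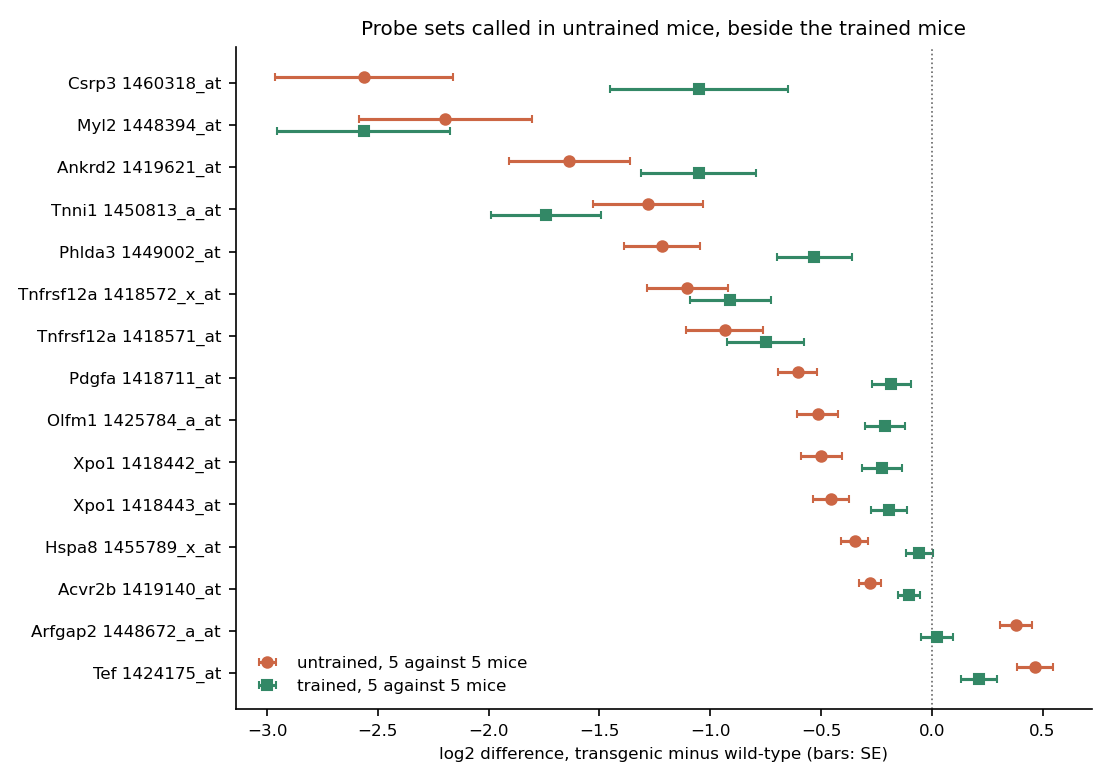
Log2 difference between transgenic and wild-type mice with its SE for the 15 probe sets called in untrained mice, in untrained (orange circles) and in trained mice (green squares); 5 mice per group, and 4 untrained wild-type mice for Ankrd2. All 15 pairs lie on the same side of 0, and Myl2 and Tnni1 are the pairs in which the trained value is farther from 0.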

How the data were processed

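The deposited table holds 1 intensity per probe set and array on a linear scale, already scaled between arrays by the authors, as read from the array medians. How the authors summarised and scaled the intensities is not given in the sources used here. Of 22690 probe sets, 64 controls were left out. Each intensity was transformed as log2(intensity + 66.7), the constant being the 20th percentile of the table, and the 13576 probe sets at or above the 40th percentile of mean log2 were tested. Empty cells stayed missing. Symbols came from the platform annotation, and 20351 matched RefSeq GRCm38.p6. A gene stands for its brightest tested probe set.

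Contrasts came from 1 limma 3.58.1 fit (R 4.3.3) to 4 group means of 5 mice, with an eBayes variance trend, two-sided, adjusted by Benjamini-Hochberg over all tested probe sets, and were tested on simulated data. P-values reflect spread between these mice. The array number limits the precision. Genes named: all called, then the smallest p up to 30, list extremes, and a fixed set of class I, myosin and receptor genes. Members and lists were chosen with earlier results of these data known. Exact permutation tests of the 83 named probe sets over the 10 mice gave the smallest p that 5 against 5 allow, 0.00794, in 26. Many of the 83 were named for their values in these same mice, so this count gives no support of its own. Over all 13576 tested probe sets the groups did not overlap in 195 (1.44%). Alternatives changed scaling, constant, filter, variance model, covariate, probe sets or mice.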

Additional observations from a re-analysis of the deposited data

Results flagged for a closer look

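In 8 of 166 group values of the named genes, the highest or lowest mouse stood apart from the others by Dixon's test, close to the 1 in 20 that chance gives. Among transgenic mice, TGUT-131 was high in Ankrd2 (2053), TGUT-145 was high in Dnajb1 (1212) and low in Arntl (133.2), and TGUT-146 was low in Kpna2 (108). Among wild-type mice, WTUT-138 was low in Hk2 (1798) and Gadd45a (532), and WTUT-130 was high in Idh2 (2192) and Tpm3 (4454).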

How the results depend on the processing

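Against 15 called probe sets (2 higher, 13 lower), array weights gave 94 (42 and 52), a Gapdh 3'/5' covariate 48 (17 and 31), and the 2 untrained groups alone 0 (0 and 0). The higher calls alone moved to 5 with quantile normalization, 1 with centring on array medians, 1 without a filter and 4 with 1 probe set per gene. Leaving out 1 mouse gave 2 to 26 calls, 0 to 5 higher and 2 to 22 lower. Chosen after the data were seen, fits without WTUT-138 and WTUT-142 gave 0 (0 and 0), and without TGUT-145 and TGUT-146 gave 8 (4 and 4). The cause of these shifts was not tested. Of 2126 refitted values of single probe sets, 1914 kept sign and call, and 32 turned sign, all for genes that did not pass. Most of the 2126 values belong to genes that did not pass and stayed so, and the 1914 therefore says little about the calls. Each of the 15 called probe sets lost its call in some of its refits, and some genes that did not pass gained one. With 1 mouse left out, values ran for Lmod2 from -0.13 to 0.24, Myh4 -0.031 to 0.013, Myh2 -0.32 to 0.093, Ddit3 -0.093 to 0.0039, Cdkn1a -0.42 to 0.12, H2-K1 -0.13 to 0.11, H2-D1 -0.094 to 0.14 and Psmb8 -0.076 to 0.0077. Without WTUT-138 and WTUT-142, Lmod2 was -0.031, H2-K1 0.21 and Psmb8 0.013. Without TGUT-145 and TGUT-146, Myh2 was 0.14, Cdkn1a 0.11, H2-D1 -0.17 and B2m -0.047. Array weights gave Cdkn1a 0.083, H2-D1 -0.050 and Psmb8 0.0038, and quantile normalization gave Myh4 0.0038. No paired analysis was possible because each mouse number belongs to 1 mouse.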
